A study of Drosophila melanogaster with 24 samples.

Results

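The whole course of early embryogenesis, from collections of 0-2 h to collections of 6-8 h, was compared across genes in Drosophila melanogaster with capped short RNA sequencing (csRNA-seq). The method selects short RNAs that carry a cap, and their 5′ ends mark where RNA polymerase II began transcription at a transcription start site (TSS). Each gene was represented by 1 promoter TSS, the one with the highest mean value over the 6 libraries compared, and was kept when that mean was at least 3 on the regularized log (rlog) scale, a log2 scale on which 1 unit is a 2-fold difference. By this rule 7715 of 10709 genes with a promoter TSS were described, out of 45839 merged TSSs.

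Dechorionated embryos of the strains Cas9, F3 and M6 were collected in 4 windows, and each strain gave 1 csRNA library per window. Cas9 carried the genotype tinWT, and F3 and M6 carried tinmDPE, a name taken here to mean that the downstream core promoter element (DPE) of tin was mutated. The gene tin, tinman, encodes a homeodomain factor of mesoderm and heart. The comparison therefore set 3 libraries of 6-8 h against 3 libraries of 0-2 h, paired by strain, with 1 tinWT and 2 tinmDPE strains on each side. The windows of 2-4 and 4-6 h, with 3 libraries each, are given beside it.

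A fly embryo begins on RNA and protein that its mother placed in the egg, while nuclei divide rapidly in a common cytoplasm. Its own genome is then switched on in steps, maternal RNAs are removed, membranes enclose the nuclei, and gastrulation brings the mesoderm inside. Segments, neuroblasts, muscle precursors, glia and the tracheal and gut rudiments are specified after that. Promoters of broadly used genes in flies often hold a DNA replication-related element (DRE), whereas promoters of developmental genes often hold GAGA repeats, an initiator and a DPE.

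The libraries held 2632187 to 2908161 tags at 0-2 h, 3413876 to 6616015 in the middle windows and 6705989 to 10553406 at 6-8 h, so depth rose with age and the effects of depth and age cannot be told apart. Over the 7715 genes, Pearson's r between libraries of one window was 0.96 to 0.98 at 6-8 h, and at 0-2 h it was 0.94 for F3 with either of the others and 0.86 for Cas9 with M6. All 13 markers of embryonic cells had a promoter TSS among the genes described. Of the markers of other sources, eggshell follicle cells had 1 of 9 (Cp15), the adult fat body 0 of 3, the testis 0 of 3 and larval gut 4 of 4. The 0-2 h libraries differed among themselves in genes of gut digestion and muscle, which are described in a paragraph of their own. In bulk embryos, a change in how many cells use a promoter and a change in use per cell cannot be told apart. Whether capped pieces of RNA that the mother placed in the egg added to the 0-2 h values was not tested. The input libraries were not used here.

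Between the ends of the course 3361 genes passed an adjusted p of 0.05 (limma over all 45839 TSSs, strain as block), 1404 of them higher and 1957 lower at 6-8 h. Those shares were 18.2% and 25.4% of the genes described, whereas 9.88% and 7.5% of all TSSs were called higher and lower. The 3 libraries of each window lay apart from each other in 1362 of the called rises and 1890 of the called falls, beside 58.7% of all genes described, and 1403 rises and 1953 falls had the same sign in all 3 strains. The median change was 1.52 among the rises and -1.57 among the falls, and -0.32 over all 7715 genes. Falls reached further among the genes described. A change of at least 2 in size was found for 587 falls and 260 rises, and of at least 4 for 68 falls and 1 rise. The minimum bears on this, since 369 genes had a mean of at least 3 only at 0-2 h and 124 only at 6-8 h. The direction of change of those genes follows from that, and they include large falls such as CG14931 and BicC. Which strains entered the fit set the count, since 0 genes were called when F3 was left out (3078 at an unadjusted p under 0.05, against 4501 with all strains), 2308 without Cas9 and 1784 without M6. All 3361 called genes had the same sign without F3. That is no separate support, since the Cas9 and M6 libraries took part in the calls and nearly all called genes had 1 sign in the 3 strains. Each change also belongs to 1 TSS. With the mean over all promoter TSSs of a gene, the change moved by over 1.5 times for 75 of the 149 called genes that the naming rule chose, 34 lost the call and 3 changed sign. Values from that mean are therefore given beside most genes and lists below that differ so far. Counts in each list below are to be read beside the 18.2% higher and 25.4% lower of all genes described. Some genes stand in more than 1 list, so the lists are not separate evidence.

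The falls came early and the rises were spread over the course. Among the 1957 falls the median step was -0.92 from 0-2 to 2-4 h, -0.53 from 2-4 to 4-6 h and -0.19 from 4-6 to 6-8 h, and the first step was the largest for 1294 genes, the second for 489 and the third for 174. Among the 1404 rises the median steps were 0.60, 0.49 and 0.48, and the largest step was the first for 584 genes, the second for 366 and the third for 454. Window means moved the same way at every step for 956 rises and 1096 falls. By strain, the median change of the rises was 1.62 in Cas9, 1.69 in F3 and 1.30 in M6, and that of the falls was -1.78, -1.68 and -1.30. These steps share libraries with the comparison that called the genes and are a description.

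**Figure D1:**
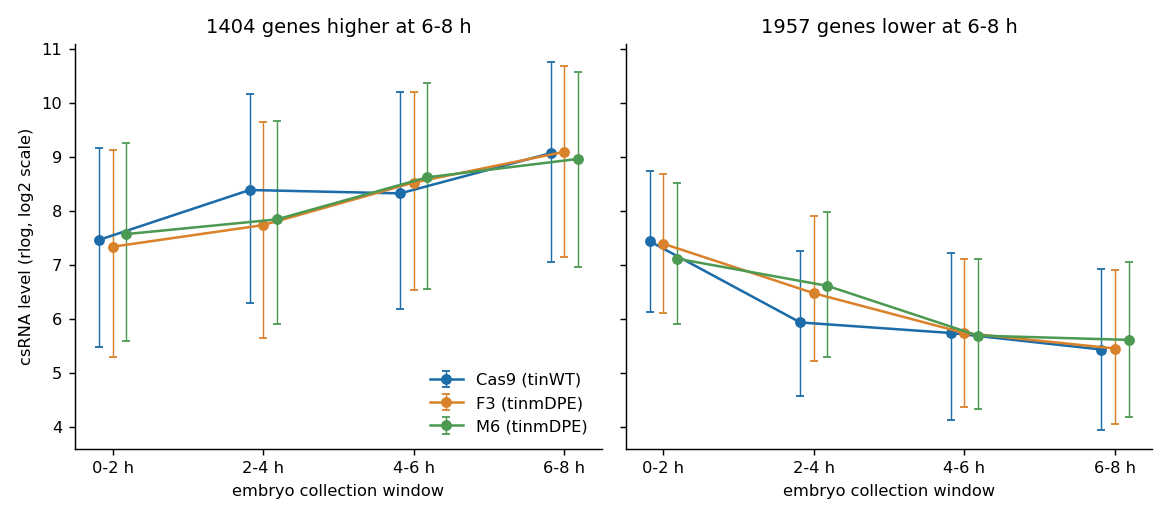
Median csRNA level (rlog, log2 scale) of the genes called higher (left) and lower (right) at 6-8 h, by collection window and strain; points are medians over genes and bars run from the lower to the upper quartile of the genes. Falls have a median step of -0.92 between the first 2 windows and -0.19 between the last 2, and rises have steps of 0.60 and 0.48. These genes were selected for the difference between the end windows.

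The 10 largest falls included genes with known roles in the oocyte and the egg. CG14931, a gene known by its annotation number, stood at 7.66 in Cas9, 6.67 in F3 and 6.57 in M6 at 0-2 h, and at 1.27, 1.22 and 1.74 at 6-8 h, a fall by 5.56 ± 0.42 (SE, adjusted p = 1.21e-06). The middle windows had 2.42, 3.65 and 3.66 at 2-4 h and 1.65, 1.57 and 1.13 at 4-6 h. Every later library was thus below every 0-2 h library, and Cas9 was the lowest strain at 2-4 h. The mean of all its promoter TSSs changed by -2.56. The matrimony gene mtrm, an inhibitor of Polo kinase in the oocyte, had 10.83, 11.08 and 10.50 at 0-2 h and 5.03, 5.81 and 5.82 at 6-8 h (change -5.25 ± 0.34, adjusted p = 4.21e-07), with no overlap between the windows. Polar granule component (pgc), which keeps transcription off in germ cells, went from 9.54, 8.61 and 8.34 to 3.15, 3.83 and 3.96 (change -5.18). The remaining large falls included APC7 (-5.48), a subunit of the anaphase-promoting complex, the meiotic kinase gene Mos (-5.28), the maternal gamma-tubulin gene gammaTub37C (-5.13), the RNA-binding gene BicC (-5.05), the cysteine proteinase gene 26-29-p (-5.21) and CG14036 (-5.06). The remaining one, LysE, is described with the gut genes.

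The sequences around the start sites of the 4 largest falls that hold a DRE within 110 bases before or 10 bases from the start, among genes on the chromosomes read for this display, are shown because the DRE was more frequent among falls than among rises. They run 5′ to 3′ on the gene's strand in dm6, from RefSeq's Release 6 genome, with the DRE (TATCGATA) and the start base in capitals, and they were chosen after the values were seen.
CG14931 (chr2L:11788347-11788466, plus strand): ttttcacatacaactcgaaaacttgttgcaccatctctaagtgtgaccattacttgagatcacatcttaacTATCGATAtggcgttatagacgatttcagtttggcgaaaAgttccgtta
gammaTub37C (chr2L:19185693-19185812, minus strand): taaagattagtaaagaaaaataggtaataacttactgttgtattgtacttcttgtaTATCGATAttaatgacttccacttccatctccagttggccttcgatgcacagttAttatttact
nos (chr3R:19157130-19157249, plus strand): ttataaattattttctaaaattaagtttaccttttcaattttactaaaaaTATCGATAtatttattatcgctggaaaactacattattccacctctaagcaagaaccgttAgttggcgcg
bam (chr3R:25245047-25245166, minus strand): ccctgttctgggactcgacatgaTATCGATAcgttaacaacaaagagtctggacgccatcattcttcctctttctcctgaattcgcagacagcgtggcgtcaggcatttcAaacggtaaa

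Genes of the maternal axes and the germ plasm mostly fell. Of 28 described, 17 were lower, 5 higher and 6 not called, with a median change of -1.53 beside -0.32 over all genes. The share lower was 60.7% beside 25.4% of all genes described, and the share higher, 17.9%, was near their 18.2%. The posterior determinant nanos (nos) had 8.11, 8.38 and 7.77 at 0-2 h, then 4.22, 5.95 and 5.85 at 2-4 h, 3.37, 3.70 and 3.43 at 4-6 h and finally 2.90, 3.0 and 3.72 at 6-8 h (change -4.88 ± 0.39, adjusted p = 1.44e-06). Most of that fall lay before 4-6 h, and the end windows did not overlap. Oskar (osk), which assembles the germ plasm, changed by -4.82, exuperantia (exu), needed to place bicoid RNA, by -4.94, and bicoid (bcd) itself by -3.94. As the mean of all its promoter TSSs nos changed by -3.23. The 5 rises of the list numbered 1 to 3 when any 0-2 h library or the Cas9 or M6 strain was left out, or with that mean, and 12 to 15 genes were lower in those fits.

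Of 18 genes that control maternal RNA, 9 were lower, 2 higher and 7 not called (median change -1.03). With the mean of all promoter TSSs 5 were lower and 0 higher (median -0.59). Cup, a translational repressor that binds eIF4E, had 11.12, 11.40 and 10.67 at 0-2 h and 5.85, 6.38 and 6.41 at 6-8 h (change -4.85 ± 0.37, adjusted p = 1.21e-06). The protein kinase gene png, which licenses translation at egg activation, went from 8.93, 8.82 and 8.68 to 3.90, 4.38 and 4.17 (change -4.66). The windows lay apart for both genes. Trailer hitch (tral), another repressor of the same granules, was high throughout and still changed by -3.09 ± 0.19, from 15.62, 15.44 and 15.91 to 12.18, 12.39 and 13.14 (-1.28 with that mean).

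Cell cycle genes of the rapid divisions were split, with 12 of 25 lower, 5 higher and 8 not called (median change -0.88). The counts were 6 lower and 2 higher without the F3 library of 0-2 h, 8 and 3 without that of Cas9, 14 and 3 without that of M6, and 4 and 2 without the M6 strain. They were 8 and 1 with the mean of all promoter TSSs, with a median of -0.39. The meiotic activator of the anaphase-promoting complex cort (change -4.64) and the Cdc25 phosphatase gene twe (-3.84) fell most, and cyclin B (CycB) changed by -2.15, or by -0.67 with that mean and without a call. CycE, the cyclin of S-phase entry, was among the 5 that rose, from 9.38, 8.90 and 8.57 to 11.12, 11.34 and 11.01 (change 2.21 ± 0.23). That direction holds for its highest promoter TSS, as the mean over all its promoter TSSs changed by -0.31 (adjusted p = 0.464). DNA replication genes mostly fell, with 19 of 28 lower (12 without the M6 strain), 0 higher and a median of -1.34. The highest change in the list was 0.71, and 1 gene was higher without the Cas9 strain or without its library of 0-2 h or of 2-4 h. DNApol-delta changed by -2.39, the helicase subunit gene Mcm5 by -2.21, the reductase subunit gene RnrL by -2.15 (-1.13 with the mean of all promoter TSSs) and the origin recognition gene Orc2 by -2.06.

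**Figure D2:**
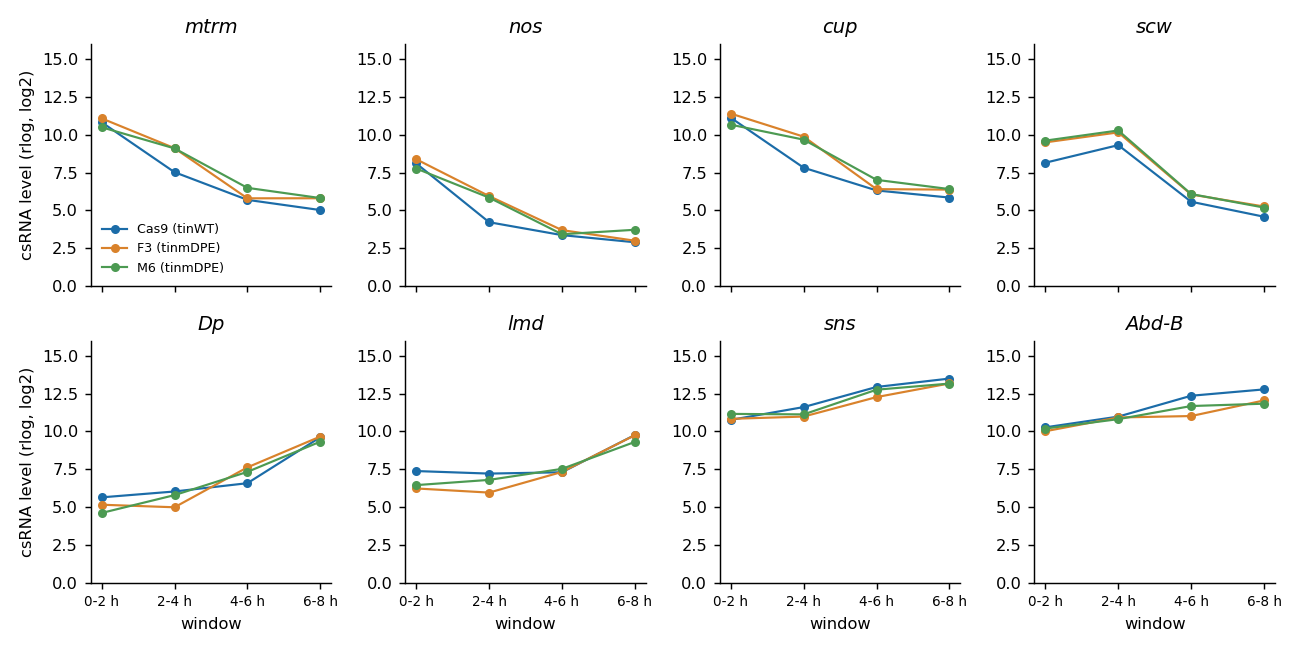
csRNA level (rlog, log2 scale) of 8 genes in each of the 12 libraries, by window, with 1 line per strain. The levels of mtrm, nos and cup fall from the first window, scw peaks at 2-4 h before it falls, and Dp, lmd, sns and Abd-B rise, with changes of 4.40, 2.92, 2.36 and 2.06 between the end windows.

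Several early zygotic genes peaked at 2-4 h and were far below their first value by 6-8 h. Screw (scw), a ligand of the bone morphogenetic protein pathway, had 8.15, 9.50 and 9.61 at 0-2 h, then 9.32, 10.16 and 10.29 at 2-4 h, 5.58, 6.06 and 6.09 at 4-6 h and finally 4.59, 5.26 and 5.19 at 6-8 h (change -4.08 ± 0.27, adjusted p = 5.34e-07). Twisted gastrulation (tsg), which acts on that pathway outside cells, had 8.32, 8.17 and 8.05 at 0-2 h and 3.78, 4.47 and 3.54 at 6-8 h (change -4.25). Both were higher at 2-4 h than at 0-2 h in all 3 strains. They were the only 2 of 22 dorsoventral genes called lower, while 15 were higher, among them the GATA factor gene pannier (pnr, change 2.29) and the T-box gene Doc3 (2.12). Of the 22, 7 were higher with the mean of all promoter TSSs and 9 without the M6 strain, with 2 lower in both fits. That mean changed by -2.29 for scw, -2.21 for tsg and 1.26 for pnr.

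Of 12 cellularization genes described, 5 were lower, 3 higher and 4 not called, with a median change of -0.19. The mean of all promoter TSSs gave 3 lower, 4 higher and a median of 0.44. The blastoderm-specific genes bottleneck (bnk, change -3.76), slam (-3.76) and Sry-alpha (-3.68) fell. Sry-alpha, which acts on actin at the growing membranes, had 9.29, 8.68 and 8.95 at 0-2 h, 10.63, 9.74 and 10.64 at 2-4 h and 4.94, 5.74 and 5.21 at 6-8 h. Its 2-4 h values were above its 0-2 h values in each strain. With that mean the changes of slam and Sry-alpha were -2.3 and -2.22.

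Housekeeping genes of protein synthesis, protein breakdown and respiration fell by smaller amounts. Of 85 genes listed by symbol as cytoplasmic ribosomal protein genes, 65 were lower, 0 higher and 20 not called, with a median change of -1.31. The 85 include RpL7-like, RpL24-like and RpLP0-like, which are named only for their likeness to such genes. RpL17 had 9.24, 9.46 and 9.35 at 0-2 h and 6.76, 7.26 and 7.78 at 6-8 h (change -2.08 ± 0.30, adjusted p = 0.000157). The mitochondrial ribosomal protein genes had 36 of 62 lower and 1 higher (mRpL41), the proteasome genes 26 of 31 lower and 0 higher, and the genes of the respiratory chain and ATP synthase 48 of 60 lower and 0 higher, with medians of -1.09, -1.32 and -1.41. ND-18, a subunit of complex I, went from 8.10, 8.37 and 8.44 to 5.66, 5.87 and 6.20 (change -2.39). Proteasome gene Prosalpha4 went from 10.12, 10.34 and 9.92 to 8.27, 7.96 and 8.08 (change -2.02). In each of the 3 genes every 6-8 h value was below every 0-2 h value. Translation factor genes were less uniform, with 19 of 43 lower, 3 higher and a median of -0.96, and the cap-binding factor gene eIF4E1 fell most (change -3.18 ± 0.34). Without the F3 library of 0-2 h, 21 mitochondrial ribosomal protein genes and 9 translation factor genes were lower, and without that of Cas9 the 3 higher translation factor genes were 1. Without the Cas9 strain the lower genes numbered 20 in the mitochondrial ribosomal list, 15 in the proteasome list and 10 among translation factors. Without the M6 strain they numbered 26 for cytoplasmic and 15 for mitochondrial ribosomal proteins, 25 for respiration and 8 for translation factors. With the mean of all promoter TSSs 10 translation factor genes were lower (median -0.35), and that mean changed by -1.18 for eIF4E1, and by -0.67 for Prosalpha4 and 0.78 for mRpL41 without a call.

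Ribosomal protein genes of flies start in a run of pyrimidines, the TCT initiator, searched here as CTTTT beginning 2 bases before to 2 bases after the start base on the gene's strand. It was found at 49 of the 85 genes (57.6%) and at 1.58% of all 7715. Short stretches around the start, in dm6 and 5′ to 3′, show it in capitals for the 4 called genes with the highest mean value that hold it on the same chromosomes.
RpS3A (chr4:67194-67223, minus strand): cgtcgtcaacgtgattcgacCTTTTccggt
RpS13 (chr2L:8364584-8364613, minus strand): gtgccaaaagtctccaccttCTTTTcggtg
RpS4 (chr3L:13041790-13041819, plus strand): gcccgcaaatctgccttttcCTTTTcctgt
RpL10 (chr3L:23095454-23095483, minus strand): cttccggtgttcgtgtcttcCTTTTctcgt

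The 10 largest rises held 1 gene above a change of 4. Dp, the dimerization partner of E2F, had 5.64, 5.15 and 4.61 at 0-2 h, then 6.03, 4.98 and 5.79 at 2-4 h, 6.57, 7.62 and 7.32 at 4-6 h and finally 9.61, 9.65 and 9.32 at 6-8 h, a change of 4.40 ± 0.37 (adjusted p = 2.04e-06). Its steepest step was the last in Cas9 and M6 and the second in F3. With the mean over all promoter TSSs of Dp the change was 2.24. Blown fuse (blow), needed for myoblast fusion, had 2.00, 2.92 and 3.10 at 0-2 h and 6.14, 5.65 and 5.63 at 6-8 h (change 3.13 ± 0.49). The gene insensible (insb) had 8.03, 6.94 and 5.82 against 10.85, 9.73 and 9.32 (change 3.03). The windows lay apart for all 3 genes. Oaz, a zinc finger gene, changed by 2.99, the noncoding gene lncRNA:CR30009 by 3.23, and CG43332, CG32182, CG43336, CG1273 and CG12547 by 3.64, 3.33, 3.16, 3.03 and 3.0. CG43332 was uneven at 0-2 h, with 6.53, 7.49 and 4.59, and changed by 2.42 without the M6 library of that window. With the mean of all promoter TSSs, CG12547 changed by 1.01, insb by 1.06, blow by 1.32, Oaz by 1.75 and CG32182 by 1.77.

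The 4 largest rises on these chromosomes that hold GAGAGAG on either strand within the same stretch and an initiator TCAGT at the start are shown next, since both words were more frequent among rises. Capitals mark GAGAGAG, each TCAGT that begins 7 bases before to 3 bases after the start base, and the start base, the orientation is that of the gene, and the choice was made after the values were seen. Cln7, whose human counterpart encodes a lysosomal membrane protein, changed by 2.60, neo, a ZP-domain protein gene of the apical matrix, by 2.46 and fng, a modifier of Notch, by 2.24.
CG1273 (chr3L:4263611-4263730, plus strand): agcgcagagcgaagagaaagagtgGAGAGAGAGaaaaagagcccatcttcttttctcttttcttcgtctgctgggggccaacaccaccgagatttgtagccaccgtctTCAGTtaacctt
Cln7 (chr3L:7345172-7345291, minus strand): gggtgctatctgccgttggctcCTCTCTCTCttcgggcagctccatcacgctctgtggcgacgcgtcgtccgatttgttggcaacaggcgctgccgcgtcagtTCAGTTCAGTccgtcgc
neo (chr3R:29819029-29819148, plus strand): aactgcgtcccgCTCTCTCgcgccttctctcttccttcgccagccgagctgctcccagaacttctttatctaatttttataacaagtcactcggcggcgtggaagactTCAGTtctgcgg
fng (chr3L:20949500-20949619, minus strand): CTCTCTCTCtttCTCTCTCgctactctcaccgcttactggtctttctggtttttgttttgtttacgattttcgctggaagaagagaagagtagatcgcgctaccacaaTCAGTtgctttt

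Most genes that assign mesoderm and build myoblasts rose. Of 20 genes of mesoderm and muscle fate, 17 were higher and 0 lower (median change 1.86), and of 10 genes of myoblast fusion 9 were higher and 0 lower (median 1.62). Lame duck (lmd), the regulator of fusion-competent myoblasts, had 7.38, 6.23 and 6.45 at 0-2 h, then 7.21, 5.95 and 6.79 at 2-4 h, 7.30, 7.32 and 7.52 at 4-6 h and finally 9.76, 9.74 and 9.30 at 6-8 h (change 2.92 ± 0.32, adjusted p = 1.62e-05). Most of the rise lay in the last step. Sticks and stones (sns), the fusion receptor of the same cells, had 10.76, 10.82 and 11.15 at 0-2 h and 13.49, 13.16 and 13.16 at 6-8 h (change 2.36 ± 0.21). Singles bar (sing, change 2.74), the T-box gene org-1 (2.80), knot (kn, 2.71) and the LIM-homeobox gene tup (2.39) rose as well, each with no overlap between windows. With the mean of all promoter TSSs the changes were 1.22 for lmd, 1.55 for sing, 1.75 for org-1, 1.73 for kn and 1.35 for tup. The muscle differentiation factor gene Mef2 was not called (change 0.083 ± 0.28, adjusted p = 0.867), with 8.45, 8.69 and 9.15 at 0-2 h and 8.40, 9.24 and 8.90 at 6-8 h. The gene tin, named in the genotypes, had 5.48 in Cas9, 4.76 in F3 and 4.66 in M6 at 0-2 h and 7.45, 7.12 and 6.96 at 6-8 h, a change of 2.21 ± 0.32 (adjusted p = 0.000168). Cas9 was the highest strain in both windows, and the changes within strains were 1.97, 2.37 and 2.30.

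All 8 Hox genes, which give segments their identity, were higher at 6-8 h, with changes of 1.51 to 2.19 and a median of 2.00. Abdominal-B (Abd-B) had 10.26, 10.01 and 10.19 at 0-2 h, then 10.97, 10.92 and 10.80 at 2-4 h, 12.35, 11.01 and 11.67 at 4-6 h and finally 12.77, 12.04 and 11.83 at 6-8 h (change 2.06 ± 0.25, adjusted p = 4.16e-05). Of 16 segment polarity genes 13 were higher and 1 lower, led by gsb-n (change 2.64), mid (2.06), inv (2.06) and hedgehog (hh, 2.05). The gene hh had 7.68, 7.62 and 7.43 at 0-2 h and 9.30, 9.80 and 9.79 at 6-8 h, with no overlap. The earlier-acting segmentation genes were called less uniformly. Gap and terminal genes had 4 of 11 higher and 1 lower, and pair-rule genes 5 of 10 higher and 0 lower, with slp2 (change 2.37) and Ten-m (1.57) among the risers. Without the M6 strain 5 Hox genes and 2 pair-rule genes were higher, and without the Cas9 library of 2-4 h 8 pair-rule genes were. With the mean of all promoter TSSs 3 pair-rule and 2 gap and terminal genes were higher. The median change was then 1.25 instead of 2.00 for Hox genes and 1.07 instead of 1.70 for segment polarity genes. That mean changed by 1.24 for Abd-B, 1.12 for gsb-n, 1.02 for mid, 1.31 for slp2 and 0.90 for Ten-m.

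The neural lists differed in how many of their genes were called. Of 21 proneural and neuroblast genes 17 were higher and 0 lower (median change 1.61). Prospero (pros), which ends neuroblast self-renewal in daughter cells, had 10.25, 9.91 and 9.84 at 0-2 h and 12.62, 12.47 and 12.43 at 6-8 h (change 2.51 ± 0.29). The orphan receptor gene svp changed by 2.67, nub by 2.35 and worniu (wor) by 2.27. Axon guidance genes had 17 of 23 higher and 1 lower (median 1.83), among them Sema1a (2.16) and Ptp99A (2.06), and glial genes 6 of 8 higher and 0 lower (median 1.54), among them wrapper (2.05) and the glial switch gene gcm (2.26). Of 17 genes of neuronal differentiation 6 were higher and 0 lower, with a median of -0.095. The pan-neuronal gene elav was one of the 6, with 7.26, 7.04 and 7.60 against 9.04, 9.32 and 9.56 (change 2.01 ± 0.40). That median depended on M6, since it was 0.74 without the M6 library of 0-2 h. The mean of all promoter TSSs left 7 proneural and neuroblast genes and 10 axon guidance genes higher, and without the M6 strain 11 proneural and 2 glial genes were higher. List medians with that mean were 0.82 for proneural and neuroblast, 0.81 for axon guidance and 0.98 for glial genes. That mean changed by 1.28 for pros and 1.37 for nub, and by 0.68 for svp, 0.65 for Sema1a and 0.27 for Ptp99A without a call.

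**Figure D3:**
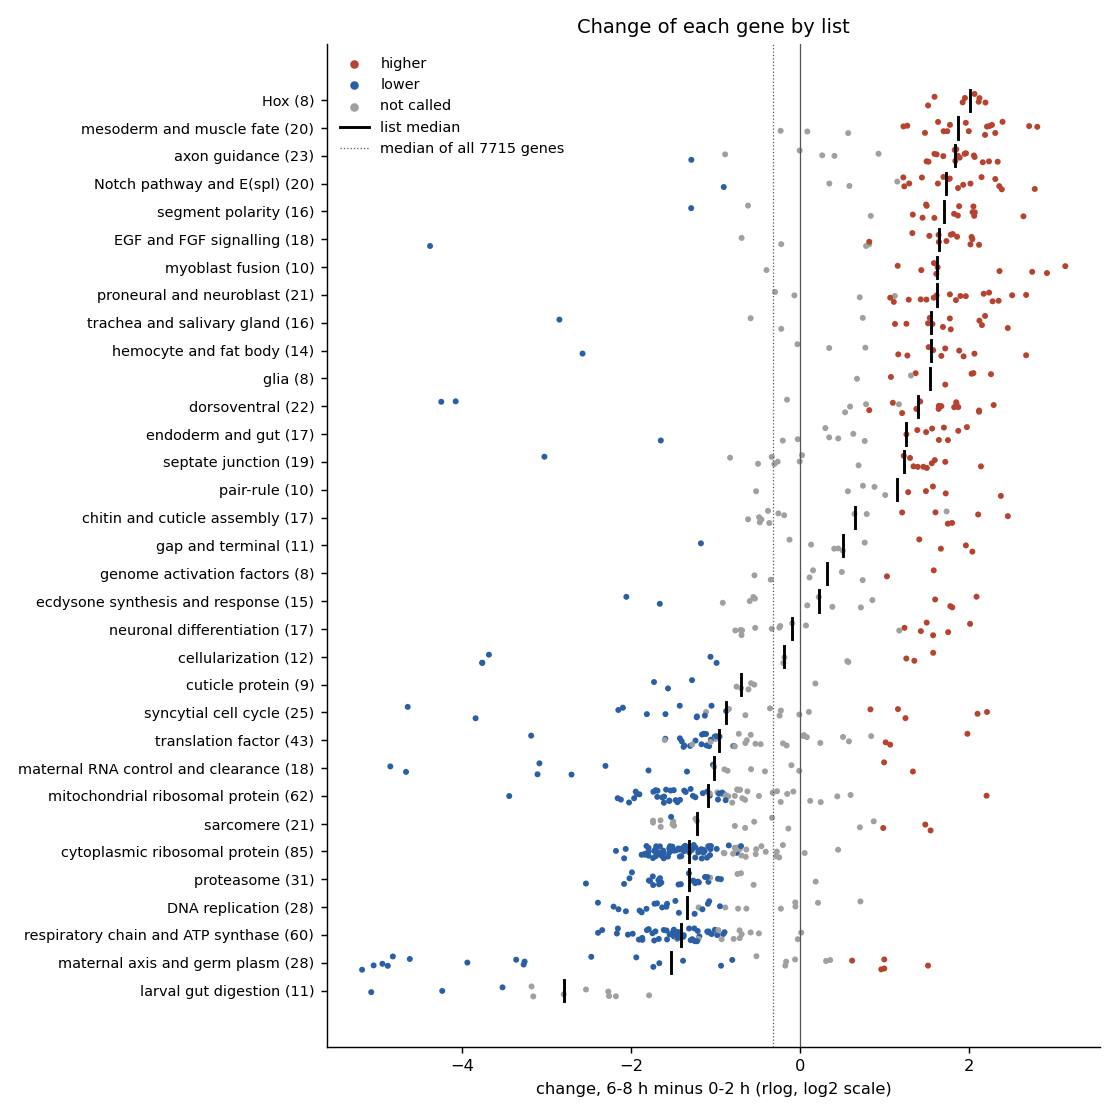
Change from 0-2 to 6-8 h (rlog, log2 scale) of each gene in the lists with at least 8 genes described (number in brackets), with red for genes called higher, blue for lower and grey for not called; black bars are list medians and the dotted line is the median of all 7715 genes. Hox genes lie between 1.51 and 2.19, and the medians of the housekeeping lists lie between -0.96 and -1.41.

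Signalling genes of the later embryo followed the same direction, in lists that share genes with those above and with each other. The EGF and FGF genes rho, ths, pyr, htl and stumps are also dorsoventral genes, pnt is also in the glial list, and btl and bnl in the trachea list. From the endoderm list srp, cad, hkb, fkh, Dr and wg are in other lists too. Of 20 genes of the Notch pathway and the Enhancer of split complex 16 were higher and 1 lower (median 1.72). E(spl)mgamma-HLH, a repressor that Notch switches on, had 11.31, 9.54 and 9.24 at 0-2 h and 13.12, 12.72 and 12.57 at 6-8 h (change 2.77 ± 0.42, adjusted p = 0.000244). Cas9 was the highest strain in both windows. Of 18 genes of EGF and FGF signalling 13 were higher and 1 lower, the rhomboid-family protease gene stet (change -4.38), with pointed (pnt, 2.03) and sprouty (sty, 2.04) among those higher. Trachea and salivary gland genes had 12 of 16 higher and 1 lower, hemocyte and fat body genes 10 of 14 and 1, septate junction genes 10 of 19 and 1, and endoderm and gut genes 9 of 17 and 1. The septate junction list includes the sugar transporter gene Tret1-1, and the endoderm list the chromatin remodeller gene dom. Gliotactin (Gli) of the septate junction rose by 2.14 ± 0.25, LanB2 of the basement membrane by 2.06 ± 0.23 and ribbon (rib) of the trachea by 2.19 ± 0.29. For these 3 genes the end windows did not overlap. Without the F3 library of 0-2 h 5 endoderm and gut genes were higher. Without the M6 strain 6 genes were higher in each of the Notch, EGF and FGF and septate junction lists, 5 in the trachea list and 4 in the endoderm list. By the mean of all promoter TSSs, 6 trachea, 5 hemocyte and 5 endoderm genes were higher, and the median of the Notch list was 1.15. That mean changed by 1.09 for pnt, 0.92 for sty and 1.27 for Gli, and by -0.70 for stet without a call.

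Other lists moved less or in both directions. Ecdysone genes had 4 of 15 higher (shd, the last step of hormone synthesis, 2.08) and 2 lower, among them sro, a gene of hormone synthesis, which had 5.04, 5.91 and 5.42 at 0-2 h, 7.54, 7.41 and 6.86 at 2-4 h and 3.16, 3.49 and 3.55 at 6-8 h (change -2.06, and -1.09 with the mean of all promoter TSSs). Genes of chitin and cuticle assembly had 6 of 17 higher (3 with that mean) and 0 lower. Structural cuticle protein genes had 0 of 9 higher and 3 lower. Their mean level was 4.89 in Cas9, 6.38 in F3 and 7.63 in M6 at 0-2 h and 4.23, 5.86 and 6.27 at 6-8 h, so Cas9 was lowest and M6 highest at both ends. Only 1 was lower without the F3 or the M6 library of 0-2 h, without the Cas9 or M6 strain and with that mean. Among the 8 genes listed as genome activation factors, with bigmax included although it is not known as one, 2 were higher (25.0%, beside 18.2% of all genes described) and 0 lower. The 2 were grh (1.58, and 0.82 without a call as the mean of all its promoter TSSs) and Stat92E (1.03, but -0.13 as that mean). Zelda (zld), the main activator of the early genome, had 11.09, 10.20 and 10.08 at 0-2 h and 10.22, 10.88 and 10.73 at 6-8 h, with a change of 0.15 ± 0.29 (adjusted p = 0.803) and overlapping windows. The eggshell gene Cp15 had 5.46, 2.37 and 2.36 at 0-2 h and 4.80, 5.20 and 5.32 at 6-8 h, without a call (adjusted p = 0.0593). Of the 2 testis-listed genes described, mia was higher (1.15, and 0.55 without a call with that mean) and bam, which also acts in the female germ line, was lower (-4.13).

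Digestive enzyme genes of the larval gut set the 0-2 h libraries apart. For all 11 such genes described, of 20 with a promoter TSS, Cas9 was lowest and M6 highest of the 3 libraries at 0-2 h. Lysozyme E (LysE) had 4.27 in Cas9, 7.40 in F3 and 10.24 in M6 at 0-2 h and 1.77, 3.16 and 1.75 at 6-8 h (change -5.08 ± 0.96, adjusted p = 0.00142). The serine protease gene Jon25Bi had 4.29, 8.31 and 11.88 at 0-2 h, 8.75 in M6 at 2-4 h against 3.52 in Cas9 and 4.41 in F3, and 8.67 in F3 at 4-6 h against 3.08 and 2.84 in the other strains. The mean level of the 11 genes was 3.13 in Cas9, 6.79 in F3 and 9.23 in M6 at 0-2 h, then 2.90, 3.30 and 6.73 at 2-4 h, 2.96, 7.01 and 2.39 at 4-6 h and finally 2.35, 4.95 and 2.85 at 6-8 h. M6 thus stood apart at 2-4 h as well, and F3 at both later windows. Of the list 3 genes were called lower (LysE, Jon25Bi and Jon44E) and 0 higher, with a median change of -2.80. The share lower, 27.3%, was near the 25.4% of all genes described. Without the Cas9 library of 0-2 h 7 were lower (median -3.96), and 1 was without the F3 or M6 library of that window or the Cas9 library of 2-4 h. The mean of all promoter TSSs left 1 lower as well. With the 6 end libraries alone, or without the Cas9 strain, 0 were. Without the replicate block, 1 of the 3 calls was kept, that of LysE. Reads of such gene families can be shared between near-identical copies, so single members are uncertain.

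Sarcomere genes, which encode the contractile apparatus, had the same order at 0-2 h in part. M6 was highest for 18 of 21 at 0-2 h and Cas9 lowest for 14, against 2500 and 2512 of all 7715 genes. Myosin heavy chain (Mhc) had 5.75, 7.72 and 9.74 at 0-2 h, then 6.67, 7.95 and 7.77 at 2-4 h, 5.49, 8.20 and 4.10 at 4-6 h and finally 4.86, 6.23 and 6.90 at 6-8 h, and its change of -1.74 ± 0.76 did not pass (adjusted p = 0.132). The windows overlapped. The list median was -1.22 and became -0.52 without the M6 library of 0-2 h. In the fit of all libraries 3 genes were higher (Zasp52, sls and Act87E) and 1 lower (flr). The share higher was 14.3% beside 18.2% of all genes described, and the share lower 4.76% beside 25.4%. With the mean of all promoter TSSs 1 gene was higher, the list median was -0.61, and Zasp52 changed by 0.37 without a call. Over all genes described, the change had an SD over strains above 2 for 67, and M6 was highest at 0-2 h for 64 of these. Only 11 of the 67 were called, and the count of called genes was 3275 without the M6 library of 0-2 h. The widest spreads were those of Jon25Bi, Alp10 and epsilonTry. What part these differences between the 0-2 h libraries have in single calls was not tested beyond those fits.

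**Figure D4:**
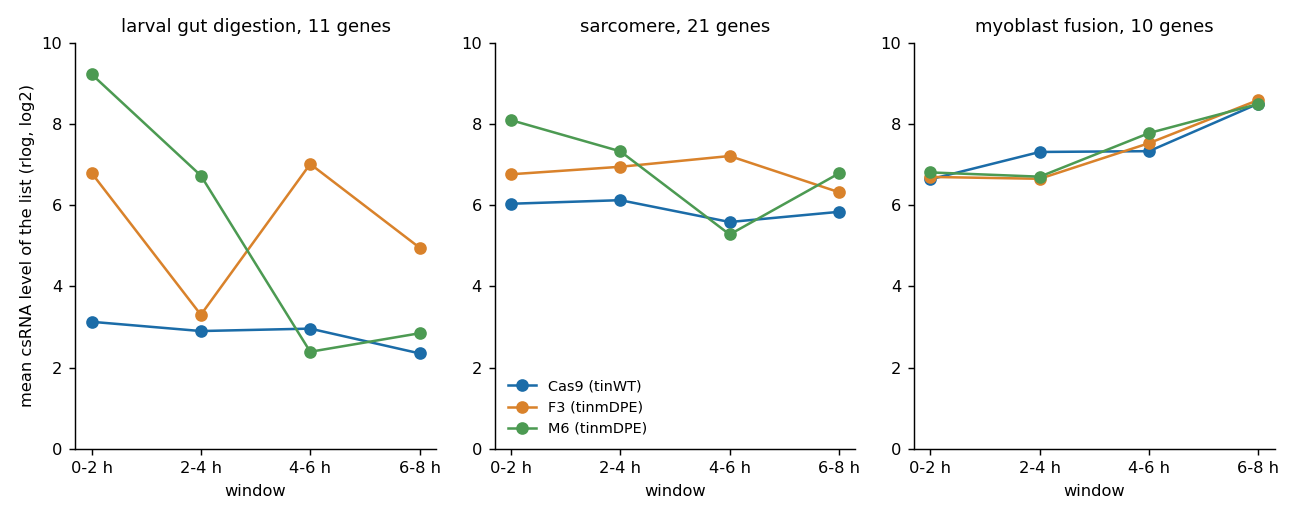
Mean csRNA level (rlog, log2 scale) of the digestion, sarcomere and myoblast fusion genes described, in each of the 12 libraries, with 1 line per strain. At 0-2 h the digestion genes stand at 3.13 in Cas9, 6.79 in F3 and 9.23 in M6, whereas the lines of the fusion genes lie close to each other in every window.

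Some genes stood highest between the ends. The 6 genes whose middle windows stood farthest above both ends were GstD5, CG4374, Vha16-3, CG9593, CG12535 and phm. Phantom (phm), a hydroxylase of ecdysone synthesis, had 7.61, 7.52 and 7.69 at 0-2 h, then 9.49, 9.16 and 8.35 at 2-4 h, 9.41, 8.66 and 8.88 at 4-6 h and finally 7.31, 6.99 and 6.91 at 6-8 h, and its end windows did not pass the test (change -0.54 ± 0.28, adjusted p = 0.214). All 6 middle values of phm were above all 6 end values. The glutathione transferase gene GstD5 had 3.70, 5.29 and 5.08, then 6.86, 6.41 and 5.58, then 7.41, 6.35 and 6.66, and finally 4.14, 4.83 and 4.14. The middle mean exceeded both ends by over 1 for 39 genes and lay below both by over 1 for 62, led by CG5958, snoRNA:U31:54Ec and CG15740. For CG15740 the 0-2 h mean rested on M6, which had 6.58 against 2.16 in Cas9 and 2.09 in F3.

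The highest levels were held by few genes. At 0-2 h the actin-severing cofilin gene tsr stood at 16.68, 16.48 and 16.20, followed by snRNA:LU and the ribosomal stalk gene RpLP0. At 6-8 h the guidance gene comm2 stood first with 16.37, 15.50 and 15.41, followed by a small nucleolar RNA gene and the kinase gene Lk6. Tsr fell by 2.04 and comm2 rose by 1.89 between the ends, each without overlap, although tsr changed by -0.45 without a call with the mean of its promoter TSSs. At the lower limit, CG10300 and lncRNA:CR44997 lay just inside a mean of 3, at 3.0001 and 3.0002, and ouib and TrpA1 just outside, at 2.9993 and 2.9986.

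Sequence words around the start had unequal shares among rises and falls. A window from 250 bases before to 50 bases from the start was read for all 7715 genes. GAGAGAG, on either strand, occurred in 21.9% of rises and 3.17% of falls, and in 8.88% of all genes. An initiator TCAGT, beginning 7 bases before to 3 bases after the start base on the gene's strand, occurred in 31.3%, 7.15% and 16.9%. A DPE occurred in 6.84%, 0.715% and 3.05%. It was read as NGNNG beginning at +28, counted from the A of such an initiator as +1, with a purine as the first N, A or T as the second and a pyrimidine as the third, so it requires the initiator match. The order was the opposite for the DRE (TATCGATA, either strand), found in 5.70% of rises, 16.1% of falls and 13.4% of all genes, and for the core of Ohler motif 1 (GGTCACAC) with 8.05%, 14.9% and 12.6%. A TATA box (TATAAA, beginning 34 to 27 bases before the start) was found in 5.20%, 2.50% and 4.11%. CAGGTAG, the word bound by Zelda, was found in 2.78%, 1.94% and 2.23%, and CAGCTG in 17.7%, 25.4% and 22.1%. These shares are descriptions without a test, and a match is not a site in use.

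By list, 8 of 16 segment polarity genes and 8 of 21 proneural and neuroblast genes held GAGAGAG, as did 0 of 85 ribosomal protein and 0 of 28 DNA replication genes. The DRE was present in 9 of the 28 replication genes (32.1%) and 10 of the 31 proteasome genes (32.3%), and in 0 of 8 Hox genes, of which 3 held a DPE. In the Notch list a TATA box was found in 10 of 20 genes, beside 4.11% of all genes. Other lists ran against the shares of rises and falls. The maternal axis list, with 17 of 28 lower, held a DRE in 2 genes (7.14%), GAGAGAG in 3 (10.7%) and an initiator in 8 (28.6%), and the Notch list, with 16 of 20 higher, held an initiator in 2. No test was made of these shares.

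**Figure D5:**
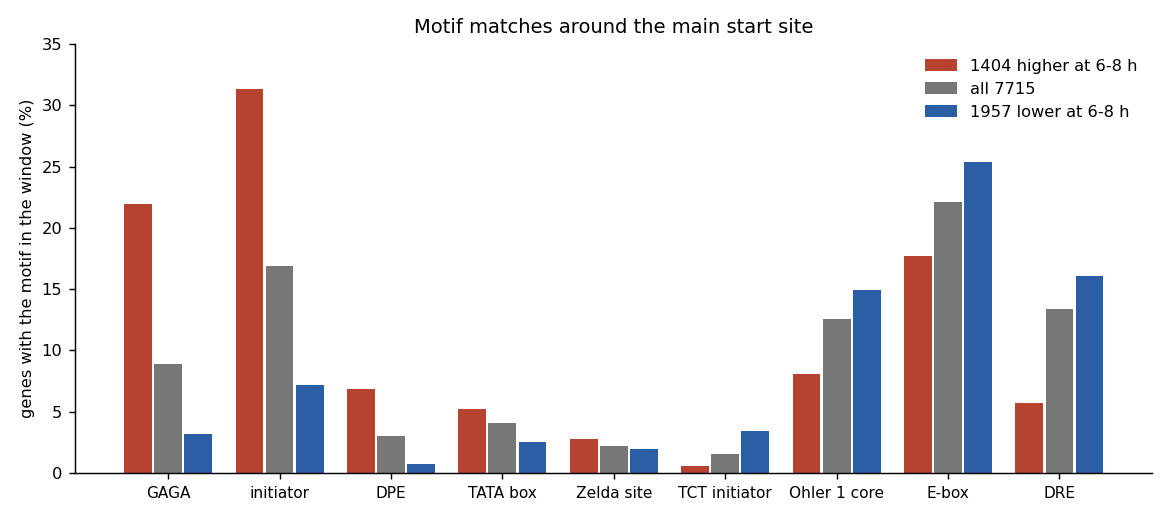
Share of genes (%) with a match to each motif in the window around the main start site, for genes higher at 6-8 h, all genes described and genes lower at 6-8 h. GAGA repeats, initiator and DPE have larger shares among rises (21.9%, 31.3% and 6.84%) than among falls (3.17%, 7.15% and 0.715%), and the DRE has the reverse order (5.70% and 16.1%).

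Whether the change over the course differed between tinmDPE and tinWT was tested as an interaction over all TSSs. No gene described was called (0 of 7715 by limma, 599 at an unadjusted p under 0.05), while 0.251% of all TSSs were. In that test tinWT rests on the single Cas9 strain, so that genotype and strain cannot be told apart.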

How the data were processed

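The authors merged TSS lists of 12 csRNA libraries and quantified them in dm6 with HOMER, counting same-strand tags at a fragment length of 1, per the file headers. What they deposited are rlog values on a log2 scale, which shrinks weak TSSs, so small levels understate change. STAR 2.7.10a and edgeR are named in the submitters' processing notes without a role. The 12 input libraries were not used here, and 0 value columns were left out. Tag totals come from the file headers.

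TSSs were fitted with limma 3.58.1 in R 4.3.3 (variance trend, window plus strain, all 12 csRNA libraries), and p-values were Benjamini-Hochberg adjusted over 45839 TSSs with a threshold of 0.05. Nothing says whether libraries stem from separate cultures of a strain, so p-values measure the spread between these libraries. Strain was the replicate block because each strain is a fly line. Deviations from window means correlated between the ends by 0.46 in Cas9, 0.22 in F3 and 0.32 in M6. Over all pairs of windows, which the 12-library fit uses, the mean was 0.23, 0.11 and 0.046, so the pairing was weaker there and rests on the fly lines. The mean between strains was -0.064. Deviations from a window mean cancel over the strains, so this value is tied to those within strains and is no separate baseline. In simulated data over 45839 TSSs, this comparison recovered 92 of 100 shifts of 2 and 7 of 100 shifts of 1, with 6 false calls. With all shifts removed there were 0 false calls. No other TSS was shifted, whereas 3361 genes were called in the data, and the cutoff of the adjustment depends on that number. The simulated noise was independent between libraries, without differences between strains or libraries. These counts therefore do not measure the power or the false calls of the fit to the data.

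The members and lists were chosen with earlier results of these data known. List symbols were corrected for aliases and wrong prefix matches once the symbols of the table had been read. Some symbols outside the named class remained, among them RpL7-like, RpL24-like, RpLP0-like, Tret1-1, dom and bigmax. The genes to be named were first the 10 largest rises and falls among called genes with the same sign in all 3 strains. Added to them were up to 4 called members of each list by size of change, tin, 6 genes high and 3 low in the middle windows, the 3 highest at each end, the neighbours of the minimum of 3 and the 3 with the widest spread over strains. For genes picked by a large called change, windows that lie apart follow in part from the choice. That gave 166 genes, of which a selection is described. Others, such as bcd, osk, zld, Mhc, Cln7 and fng, were named after their values were seen. Start positions were the position called most often by the authors. Sequence came from RefSeq's Release 6 genome. Python 3.11.15 with pandas 2.3.3 made the summaries.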

Additional observations from a re-analysis of the deposited data

How the results depend on the processing

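Leaving out 1 library or strain at a time gave 0 to 3804 called genes, 0 to 1547 higher and 0 to 2257 lower. The 0 came from leaving out F3, where the smallest adjusted p over the genes was 0.053. Without the F3 library of 0-2 h alone, an alternative chosen after seeing the data like the one without M6 at 0-2 h, 2233 genes were called. Of the other alternatives, 2581 to 3720 genes were called, and without the replicate block (unpaired) 3190 were. The block moved the count of lower digestion genes from 1 to 3 and that of no other list by over 1.5 times, and of the called genes named by the rule Alp10, Cpr11A, Jon25Bi, Jon44E and LanB1 lost the call without it (adjusted p = 0.105 to 0.116). The median change was -0.23 after quantile normalization, -0.16 with the mean of all promoter TSSs of a gene and -0.25 with no minimum, and its sign was the same in every alternative run. Genes whose change differed between genotypes numbered 1 after quantile normalization and 0 to 11 when a library was left out, and leaving out a strain gave no such fit.

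Of the 149 called genes named by the rule, 146 kept their sign in all 15 alternatives, and 34 lost the call with the mean of all promoter TSSs, 32 without M6 and 20 without Cas9. Since they were chosen on calls from the same libraries, a kept sign is no separate support. The 3 exceptions in sign arose with the mean of all promoter TSSs, where CycE changed by -0.31, Stat92E by -0.13 and RpL38 by 0.027. Genes that were not called changed sign more often. GstD5 changed by 0.24 with that mean, CG9593 by 0.11, Lk6 by 0.39 and the small nucleolar RNA gene of the highest levels by 0.48 after quantile normalization, and Vha16-3 by -0.014 and snoRNA:U31:54Ec by -0.011 when libraries were centred on their medians. With a strain or library left out, the change ran from -1.91 to 0.0077 for CG10300, -0.47 to 0.97 for CG12535, -1.71 to 0.97 for CG15740, -0.55 to 0.54 for CG5958, -0.56 to 0.40 for CG9593, -0.98 to 0.055 for GstD5, -0.48 to 0.42 for Vha16-3 and -0.36 to 0.42 for snoRNA:U31:54Ec. The cause was not tested. Depth was lowest at 0-2 h, and what part that had in these changes of sign was not tested either.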

Other observations

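Properties outside the lists had uneven counts, given here as values without a test. Of the 281 genes of noncoding RNA described, 118 were higher and 34 lower at 6-8 h, beside 1404 higher and 1957 lower of all 7715. Most are long noncoding or antisense RNA genes, and small RNA genes with similar copies are among the rest, so single values are uncertain. On the small chromosome 4, 21 of 77 genes were higher and 11 lower, with a median change of 0.15, whereas the medians of the X chromosome and the 4 large arms lay between -0.41 and -0.28. Among the 2994 genes under the minimum mean of 3, 119 were called higher and 240 lower.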
